A study of Mus musculus with 10 samples.

Results

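The 10 transcripts described here encode the Nodal and activin signalling pathway in mouse embryonic stem cells: the ligand Nodal, its antagonists Lefty1 and Lefty2, the co-receptor Tdgf1, the receptors Acvr1b, Acvr2a and Acvr2b, and the signal transducers Smad2, Smad3 and Smad7. They were chosen by gene name, and all 10 were found among the 55401 genes of the deposited expression table. All 10 also passed the filter on low values, which left 12797 genes (a mean of at least 1 TPM over all libraries). Poly(A) RNA was sequenced from E14 cells, a widely used mouse embryonic stem cell line, in 10 libraries. The wild-type cells (labelled Untreatment) gave 4 libraries in 2 numbered sets, and cells whose genome was edited with CRISPR/Cas9 to carry ANKRD11 Y347A (labelled Matate) gave 6 libraries in 3 numbered sets, with 2 libraries in each set. ANKRD11 is a nuclear regulator of transcription, and the series asks how its contact with cohesin, the ring complex that holds and folds chromatin, bears on neural and craniofacial development. What a numbered set stands for (a separate clone, a separate culture) is left unsaid by the labels, as are zygosity, passage and culture medium. The p-values therefore reflect set-to-set spread only, and this spread may be technical.

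Nodal is a secreted ligand of the TGF-beta superfamily that patterns the early embryo. It binds type II activin receptors (Acvr2a, Acvr2b) and the type I receptor Acvr1b together with the co-receptor Tdgf1, also called Cripto, and the receptors phosphorylate Smad2 and Smad3, which enter the nucleus with Smad4 and partners such as Foxh1. Lefty1 and Lefty2 are secreted inhibitors that are themselves induced by the pathway and hold Nodal in check, and Smad7 is an inhibitory SMAD that targets active receptors. In mouse embryonic stem cells Nodal signalling is active through autocrine ligand, and it is known for steering exit from the naive state and the choice between mesoderm, endoderm and neural fates.

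The antagonists carried the greatest changes among the members, while the receptors and SMADs went both ways. Of the 10 members, Lefty2, Lefty1 and Smad3 were lower and Acvr1b and Tdgf1 were higher in the mutant, while 5 members were not called (limma on set means, Benjamini-Hochberg adjusted p under 0.05 over all tested genes). Over all 12797 tested genes 17.5% were called, 6.97% higher and 10.5% lower. For 6 of the 10 members the ranges of the 6 mutant and 4 wild-type libraries did not overlap, namely the 5 called ones and Acvr2a. The same held for 31.8% of all tested genes. Among the ligand, the antagonists and the co-receptor (4 genes) the median log2 fold change was -0.94, and among the 3 receptors and 3 SMADs it was -0.16, beside -0.04 over all tested genes. Log2 fold changes are mutant minus wild type on the log2(TPM + 1) scale with their standard error, and this scale understates changes of low genes. TPM is a transcript abundance scaled to transcript length and to a fixed total per library, and levels are given as mean ± SD over set means (n = 2 wild-type and n = 3 mutant sets).

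**Figure D1:**
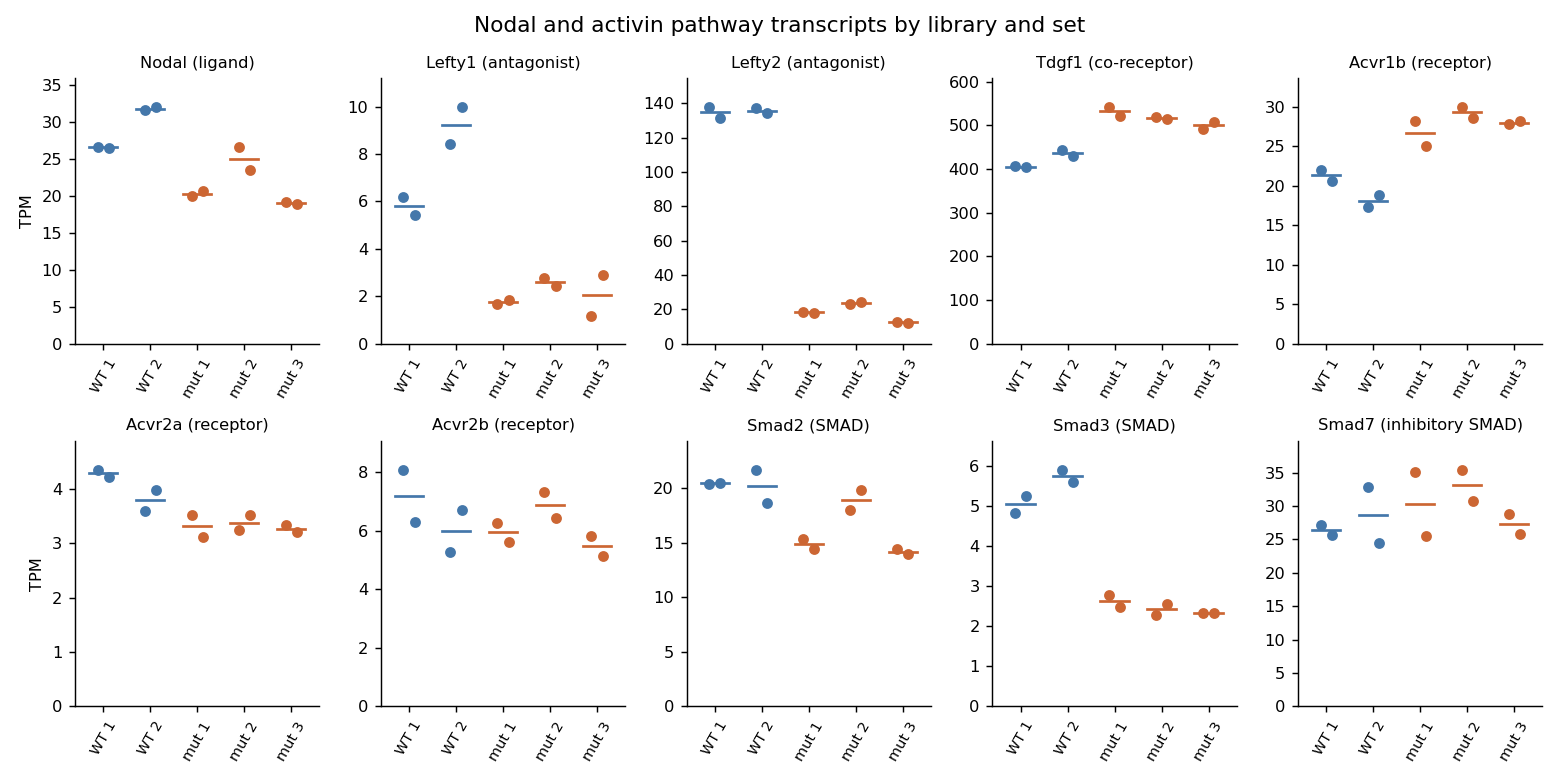
TPM of each member in every library (points; blue wild type, orange mutant; 2 libraries per numbered set) with the set mean as a line; each panel has its own axis starting at 0. Lefty2 sat between 131.53 and 137.95 TPM in the wild-type libraries and between 12.02 and 23.95 TPM in the mutant libraries.

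Each library sums to 1000000 TPM within rounding, so sequencing depth and counting error are unknown. The number of genes at 1 TPM or more was 12473 to 12812 per library. The first principal component of the tested genes (40.2% of the variance) separated the genotypes, and the second (11.6%) set mutant set 2 apart from mutant sets 1 and 3, so results that depend on that set are given with and without it. Ankrd11 itself was at 62.4 ± 4.54 TPM in wild-type and 59.8 ± 5.65 TPM in mutant sets (log2 fold change -0.06 ± 0.10, adjusted p = 0.686). A change of a single amino acid need not alter the transcript level, so this does not check the genotype. All 8 pluripotency markers examined were expressed in both genotypes, with summed levels from 10481 to 11178 TPM in wild-type and from 9223 to 11050 TPM in mutant libraries. Of these, 1 was called higher and 2 were called lower, with Nanog (543 and 339 TPM in wild-type and mutant libraries) among the latter. Mean levels of Zfp42 (361 and 257), Utf1 (54.3 and 37.4), Pou5f1 (1224 and 1123), Sox2 (292 and 285) and Dppa5a (8115 and 7350) were also lower. Those of Esrrb (247 and 299) and Klf4 (62.8 and 71.1) were higher. The 7 primitive endoderm markers together stayed between 0.63 and 1.65 TPM, and none of them reached a mean of 1 TPM.

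Markers of other cell types were present at low levels. The 6 fibroblast feeder markers summed to 1.97 to 4.48 TPM in wild-type and 1.24 to 2.17 TPM in mutant libraries, with Thy1 as the marker that reached a mean of 1 TPM and Postn and Dcn at 0 in every library. The 5 primitive streak and mesoderm markers summed to 2.75 to 3.47 TPM in wild-type and 1.61 to 2.33 TPM in mutant libraries. These sums did not overlap between genotypes, and the gap came from Gsc, which is also a Nodal target. Gsc was the marker that reached a mean of 1 TPM, at 1.95 TPM in wild-type and 0.843 TPM in mutant libraries. It did not pass (limma on set means, adjusted p = 0.0697). Under 1 TPM, T (0.735 and 0.788), Mixl1 (0.225 and 0.308) and Mesp1 (0.025 and 0.0367) were slightly higher in the mutant. Evx1 (0.015 and 0.00333) was lower. The 7 trophoblast markers summed to 14.7 to 21.5 TPM and 19.7 to 29.6 TPM, with 3 markers at a mean of 1 TPM or more and most of the sum from Tfap2c. Tfap2c (14.3 and 20.9), Eomes (1.92 and 2.44), Cdx2 (0.943 and 1.15) and Hand1 (0.035 and 0.0617) were higher in the mutant. Gata3 (0.865 and 0.09), Krt7 (0.0875 and 0.0517) and Elf5 (0.03 and 0.0117) were lower, and none of the 7 was called. Of the 5 neural markers, which summed to 24.2 to 28.1 TPM and 21.5 to 31.3 TPM, 3 reached a mean of 1 TPM, Neurog2 was at 0 in every library and 1, Sox1, was called higher. Whether other cell types were present, and what part they had in the results below, was not tested. In bulk RNA fewer cells that express a gene cannot be told apart from less RNA per cell.

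Lefty2 fell more than any other member. Its wild-type libraries stood at 137.95 and 131.53 TPM in set 1 and 137.08 and 134.08 TPM in set 2. In the 6 mutant libraries the lowest was 12.02, the median 18.3 and the highest 23.95 TPM. The wild-type libraries lay close together, and every mutant library was far below them. The means were 135 ± 0.594 and 18.1 ± 5.58 TPM, a ratio of 0.134, with a log2 fold change of -2.88 ± 0.23 (adjusted p = 0.00267). By size of change Lefty2 ranked 8 among the 2242 called genes.

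Lefty1, a paralogue with the same role, fell as well, from a lower starting level. It stood at 6.20 and 5.43 TPM in wild-type set 1 and at 8.42 and 9.99 TPM in wild-type set 2. In the mutant libraries it ran from 1.16 TPM over a median of 2.13 TPM to 2.91 TPM. Every mutant library was below every wild-type library, although wild-type set 2 was higher than wild-type set 1. The means were 7.51 ± 2.40 and 2.13 ± 0.433 TPM (log2 fold change -1.44 ± 0.21, adjusted p = 0.0102). The summed level of both antagonists ran from 136.96 to 145.5 TPM in wild-type and from 13.96 to 26.4 TPM in mutant libraries. The ratio of Lefty2 to Lefty1 ran from 13.4 to 24.2 in wild-type and from 4.13 to 11.0 in mutant libraries. Neither the sum nor the ratio was tested.

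The Lefty genes lie near each other and have similar coding sequences, which bears on how far reads can be told apart. Lefty2 (ENSMUSG00000066652.5) spans chr1:180893108-180899103 and Lefty1 (ENSMUSG00000038793.8) chr1:180935022-180938400, both on the plus strand of GRCm38 (the assembly called mm10), with 35918 bp between them. Their coding sequences (1 GENCODE M21 transcript of each gene, with 4 exons) are both 1107 bases long and identical at 1017 positions, 91.9%.

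Stretches of the transcripts are the same. Of the 75-base windows of the Lefty1 transcript, 11.2% occur without a mismatch in that of Lefty2, and 7.21% of the Lefty2 windows occur in Lefty1. For 100-base windows these shares were 4.80% and 3.07%. The sources used here give no read length. Reads from such stretches are divided between the copies by estimation, so low Lefty1 levels cannot be fully told apart from misassigned Lefty2 reads, and the Lefty1 values are uncertain.

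Nodal, the ligand, was lower in the mutant by less than its antagonists and did not pass the test. The gene (ENSMUSG00000037171.6) lies at chr10:61417972-61425338. Its wild-type libraries were at 26.54 and 26.51 TPM in set 1 and 31.52 and 32.01 TPM in set 2. In the mutant libraries the lowest was 18.93, the median 20.3 and the highest 26.58 TPM. A single mutant library, library 1 of set 2, lay just above the lowest wild-type libraries, so the groups overlapped. The means were 29.1 ± 3.71 and 21.4 ± 3.16 TPM, with a log2 fold change of -0.43 ± 0.14, a 95% interval from -0.76 to -0.11 and an adjusted p of 0.0726. Without mutant set 2 the change was -0.54 and passed (adjusted p = 0.0321). When all 10 libraries entered the fit and sets were a random block, it passed too (adjusted p = 0.0152). The ratio of Lefty2 to Nodal transcripts ran from 4.19 to 5.20 in wild-type and from 0.635 to 1.02 in mutant libraries, without a test.

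Tdgf1, the co-receptor that brings Nodal to its receptors, was the most abundant member in every library and was higher in the mutant. The gene (ENSMUSG00000032494.12) lies at chr9:110939603-110946158. Its wild-type libraries were at 406.33 and 404.28 TPM in set 1 and 443.88 and 428.51 TPM in set 2. In the mutant libraries it ran from 492.51 TPM over a median of 517 TPM to 542.16 TPM. The groups did not overlap. The means were 421 ± 21.8 and 516 ± 16.0 TPM, a ratio of 1.23 (log2 fold change 0.30 ± 0.06, adjusted p = 0.0269). The antagonists were thus lower and the co-receptor higher.

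The promoters of Nodal and Tdgf1 are shown because these partners bind the receptors together while only the co-receptor was called higher. RefSeq promoters (GRCm38.p6) were searched for 6 of the 10 members, namely Nodal, Tdgf1, Acvr1b, Acvr2a, Acvr2b and Smad3. The 250 bases before each start site are printed 5′ to 3′ in the direction of transcription, at chr10:61417722-61417971 (Nodal, plus strand) and chr9:110946159-110946408 (Tdgf1, minus strand), with the match to a SMAD box in capitals.
Nodal: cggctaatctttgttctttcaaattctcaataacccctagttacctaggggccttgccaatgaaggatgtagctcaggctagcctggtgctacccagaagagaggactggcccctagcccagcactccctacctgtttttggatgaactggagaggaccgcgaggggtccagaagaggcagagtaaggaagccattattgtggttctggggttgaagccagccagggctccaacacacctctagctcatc
Tdgf1: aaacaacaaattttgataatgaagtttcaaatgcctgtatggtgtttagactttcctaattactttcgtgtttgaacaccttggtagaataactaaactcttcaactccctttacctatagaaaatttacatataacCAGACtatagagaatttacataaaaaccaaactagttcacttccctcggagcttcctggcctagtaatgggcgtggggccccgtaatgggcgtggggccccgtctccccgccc

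The letters searched on both strands, from 250 bases before to 50 bases after the start site, were the SMAD box CAGAC, the SMAD palindrome GTCTAGAC and the FOXH1 site as AATACACA or AATCCACA, none of which contains another. Tdgf1, Acvr2a and Acvr2b each held 1 SMAD box, in Tdgf1 from position -113 relative to the start site, and Nodal, Acvr1b and Smad3 held none. A SMAD box occurs in 49.6% of all 32851 promoters of that length, beside 3 of these 6 members. None of the 6 held the palindrome or the FOXH1 letters, which occur in 0.213% and 1.82% of promoters. A match of letters is a description and not a binding site.

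Among the receptors, the type I receptor rose and the type II receptors did not pass. Acvr1b, the kinase that phosphorylates Smad2 and Smad3 (ENSMUSG00000000532.11, chr15:101174067-101213684), stood at 21.95 and 20.63 TPM in wild-type set 1 and 17.23 and 18.76 TPM in wild-type set 2. In the mutant libraries it ran from 25.05 TPM over a median of 28.1 TPM to 29.96 TPM, above every wild-type library. The means were 19.6 ± 2.33 and 27.9 ± 1.33 TPM, a ratio of 1.42 (log2 fold change 0.49 ± 0.10, adjusted p = 0.0230).

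Acvr2a, a type II receptor that binds the ligand, was low throughout. It stood at 4.36, 4.22, 3.59 and 3.99 TPM in the wild-type libraries, and the mutant libraries ran from 3.11 to 3.52 TPM with a median of 3.29 TPM. Although the groups did not overlap, the gap between them was narrow and the change of -0.22 ± 0.13 did not pass (adjusted p = 0.263, 95% interval -0.52 to 0.08). The other type II receptor, Acvr2b, was at 6.60 ± 0.866 and 6.11 ± 0.715 TPM, with libraries from 5.27 to 8.10 TPM in wild-type and from 5.14 to 7.32 TPM in mutant cells that overlapped (-0.09 ± 0.14, adjusted p = 0.674, 95% interval -0.42 to 0.24).

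Of the receptor-activated SMADs, Smad3 fell and Smad2 did not pass. Smad3 (ENSMUSG00000032402.12, chr9:63646767-63757994) stood at 4.82 and 5.24 TPM in wild-type set 1 and 5.90 and 5.58 TPM in wild-type set 2. In the mutant libraries it lay between 2.27 and 2.77 TPM with a median of 2.40 TPM. Every mutant library was thus below every wild-type library. The means were 5.39 ± 0.502 and 2.46 ± 0.152 TPM, a ratio of 0.456 (log2 fold change -0.88 ± 0.13, adjusted p = 0.0106).

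Smad2, the more abundant of the pair, was at 20.40 and 20.49 TPM in wild-type set 1 and 21.72 and 18.65 TPM in wild-type set 2. The mutant libraries ran from 13.95 TPM over a median of 14.9 TPM to 19.82 TPM. The libraries of mutant set 2 reached into the wild-type range, and those of sets 1 and 3 lay below it. The change over all sets was -0.34 ± 0.13 (adjusted p = 0.121, 95% interval -0.65 to -0.02), and without mutant set 2 it was -0.45 and passed (adjusted p = 0.0293). The ratio of Smad2 to Smad3 ran from 3.34 to 4.23 in wild-type and from 5.53 to 7.94 in mutant libraries, which was not tested.

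Smad7, the inhibitory SMAD, was at 27.5 ± 1.55 and 30.3 ± 2.90 TPM with overlapping groups, ranging from 24.4 to 32.86 TPM in wild-type and from 25.55 to 35.45 TPM in mutant libraries. Its change of 0.13 ± 0.10 did not pass (adjusted p = 0.406, 95% interval -0.11 to 0.37).

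**Figure D2:**
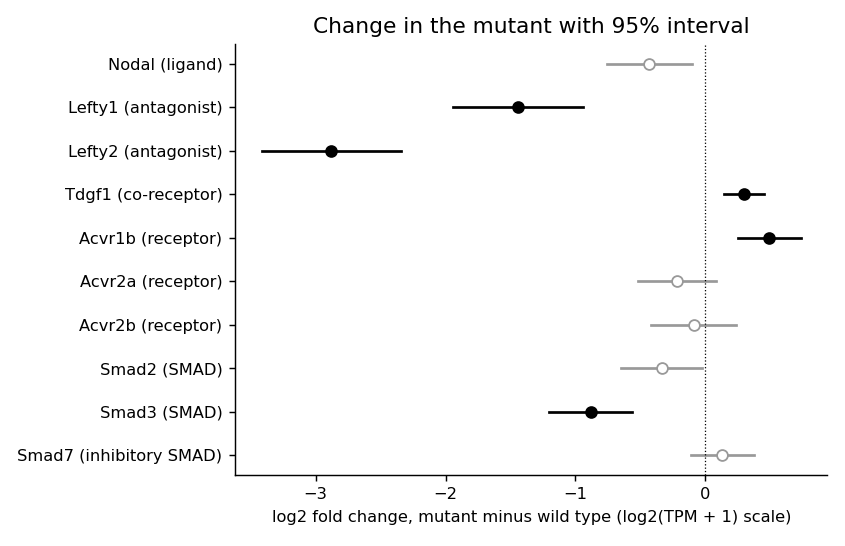
Log2 fold change of each member, mutant minus wild type on the log2(TPM + 1) scale (points), with the 95% interval from limma on set means (lines); filled black symbols passed an adjusted p of 0.05. The points run from -2.88 for Lefty2 to 0.49 for Acvr1b.

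The calls rested on few sets. Leaving out wild-type set 2 leaves 1 wild-type set, assumed to vary like the mutant sets. No member then passed (limma, 5 of 10 at an unadjusted p under 0.05), with adjusted p = 0.0527 for Lefty2, 0.104 for Lefty1, 0.113 for Smad3, 0.132 for Tdgf1 and 0.170 for Acvr1b. Without wild-type set 1, Lefty2 and Lefty1 passed, and Smad3 (0.0685), Acvr1b (0.0793) and Tdgf1 (0.174) did not. Without mutant set 1 and without mutant set 3 the calls of Lefty1, Lefty2 and Smad3 held, and those of Acvr1b (0.0598 and 0.0654) and Tdgf1 (0.0711 and 0.0587) were lost. Without mutant set 2 all 5 held. Leaving out any single library ended none of the 5 calls. With no filter on low values, which adds genes near 0 to the adjustment, Lefty2 passed and Lefty1 (adjusted p = 0.0532), Smad3 (0.0501), Acvr1b (0.0629) and Tdgf1 (0.0669) did not. Under the 2 rescalings of libraries that were run, median-of-ratios and quantile, all 10 members kept their direction and the same 5 were called. Over all genes the called ones divided into 892 higher and 1350 lower, into 1095 and 1096 after median-of-ratios scaling and into 1073 and 1039 after quantile normalization.

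The order of levels also differed between the genotypes. In wild-type libraries it ran from Tdgf1 over Lefty2, Nodal, Smad7, Smad2, Acvr1b, Lefty1, Acvr2b and Smad3 to Acvr2a. Nodal and Smad7, Smad2 and Acvr1b, Lefty1 and Acvr2b, and Acvr2b and Smad3 were neighbours in that order whose libraries overlapped. In mutant libraries it ran from Tdgf1 over Smad7, Acvr1b, Nodal, Lefty2, Smad2, Acvr2b, Acvr2a and Smad3 to Lefty1. There the libraries of Smad7 and Acvr1b, Acvr1b and Nodal, Nodal and Lefty2, Lefty2 and Smad2, and Smad3 and Lefty1 overlapped. Lefty2 thus went from the second place, clear of its neighbours, to a middle group with Nodal and Smad2, and Lefty1 from above Acvr2b to the last place.

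The mutant sets were not alike for all members. Lefty2 (limma F test between mutant sets, adjusted p = 2.1e-04), Nodal (0.0145) and Smad2 (0.0286) differed between mutant sets 1, 2 and 3, 3 of 10 members where 19.6% of all tested genes did. The set means of Lefty2 were 18.3, 23.6 and 12.4 TPM, which is 13.5%, 17.4% and 9.18% of the wild-type mean. Nodal stood at 69.6%, 85.8% and 65.2% and Smad2 at 73.2%, 93.2% and 69.9% of its wild-type mean. In all 3 genes mutant set 2 was the highest and mutant set 3 the lowest. Smad3 did not pass this test (adjusted p = 0.633) and was at 48.7%, 44.8% and 43.3%. The call of Smad2 was lost with no filter on low values (adjusted p = 0.0619). Tdgf1 passed it after median-of-ratios scaling (adjusted p = 0.0230). These F tests use the spread between the 2 libraries of a set, which may be technical.

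Between the 2 wild-type sets no member passed, where 2.75% of all tested genes did (limma, adjusted p under 0.05). Nearest to the threshold were Nodal (0.25 ± 0.06 higher in set 2, adjusted p = 0.0867), Tdgf1 (0.11 ± 0.03, adjusted p = 0.120), Acvr1b (-0.23 ± 0.07, adjusted p = 0.134) and Lefty1 (0.58 ± 0.25, adjusted p = 0.239). Lefty2 was nearly equal in the wild-type sets, at 134.74 and 135.58 TPM.

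**Figure D3:**
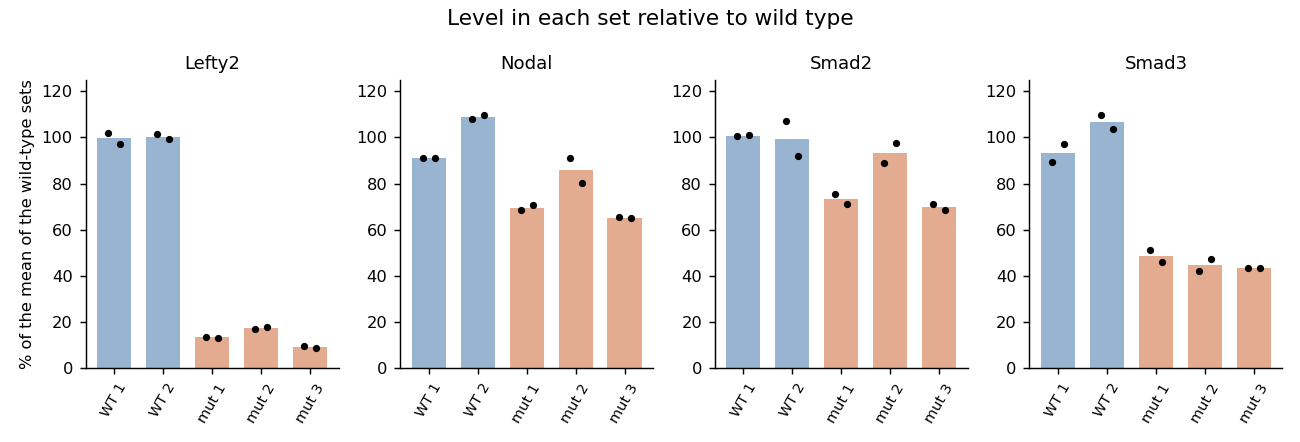
Level of Lefty2, Nodal, Smad2 and Smad3 in each set as a percentage of the mean of the wild-type sets (bars, set means; points, the 2 libraries; blue wild type, orange mutant). Mutant set 2 reaches 85.8% for Nodal and 93.2% for Smad2, while Smad3 lies between 43.3% and 48.7% in all mutant sets.

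Of the other genes of the pathway, a list of 46, 32 had a mean of at least 1 TPM and were tested. Of these, 1 rose, 8 fell and 23 did not pass. Over all tested genes 6.97% were called higher and 10.5% lower. The median log2 fold change of the list was -0.20 beside -0.04 over all tested genes. In place of 9 genes, 6 passed after median-of-ratios scaling and 4 after quantile normalization. Of 7 tested targets (Skil and Pmepa1 also stand among the negative regulators), 2 fell and 5 did not pass. Otx2, a forebrain and epiblast homeobox factor, was at 10.33, 10.48, 15.61 and 15.63 TPM in wild-type and between 1.87 and 5.37 TPM in mutant libraries (log2 fold change -1.64 ± 0.31, adjusted p = 0.0182). The groups did not overlap. Gsc, an organizer factor, was at 1.95 and 0.843 TPM (-0.71 ± 0.22, adjusted p = 0.0697), while Eomes, a T-box factor of endoderm and trophoblast, was at 1.92 and 2.44 TPM (0.24 ± 0.15, adjusted p = 0.309). Otx2 did not pass without wild-type set 2 (adjusted p = 0.156), without wild-type set 1 (0.0862) or with no filter on low values (0.0779). Several classical targets, Mixl1, T, Foxa2, Fgf5, Fgf8, Lhx1 and Cer1, had means under 1 TPM and were not tested.

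Of 9 tested receptors and signal transducers outside the members, 3 fell and 6 did not pass. Zfyve9, the anchor SARA that brings Smad2 and Smad3 to the receptors, fell from 8.82 to 5.42 TPM (-0.61 ± 0.15, adjusted p = 0.0375). Drap1, a corepressor that binds Foxh1, fell from 122 to 93.9 TPM (-0.37 ± 0.08, adjusted p = 0.0236), and Trim33, a ubiquitin ligase that binds SMADs, from 29.3 to 22.5 TPM (-0.37 ± 0.09, adjusted p = 0.0336). Foxh1 (-0.27 ± 0.08, adjusted p = 0.0521) and Smad4 (-0.23 ± 0.12, adjusted p = 0.202), the nuclear partners of Smad2 and Smad3, did not pass. Each of the 3 calls was lost without wild-type set 1, wild-type set 2 or mutant set 3, and those of Zfyve9 and Trim33 without mutant set 1. After quantile normalization Zfyve9 (adjusted p = 0.0563) and Drap1 (0.0525) did not pass, nor did Zfyve9 after median-of-ratios scaling (0.0533). Zfyve9 also lost the call without library 1 of wild-type set 1 (adjusted p = 0.0662) and Trim33 without library 1 of mutant set 1 (adjusted p = 0.0559).

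Among 9 tested negative regulators, 2 fell and 7 did not pass. Ppm1a, a phosphatase that acts on Smad2 and Smad3, fell from 79.1 to 60.7 TPM (-0.38 ± 0.07, adjusted p = 0.0181), and Tgif1, a homeobox corepressor of SMADs, from 154 to 126 TPM (-0.29 ± 0.07, adjusted p = 0.0329). Ppm1a and Tgif1 lost the call on leaving out either wild-type set, mutant set 1 or mutant set 3 (adjusted p from 0.0523 to 0.143 and from 0.0806 to 0.208). After median-of-ratios scaling (0.0657) and quantile normalization (0.0923) Tgif1 did not pass. Of 9 other tested ligands, antagonists and processing genes, 1 rose, 1 fell and 7 did not pass. Dact2, an inhibitor that promotes degradation of Nodal receptors, rose from 8.25 to 11.8 TPM (0.47 ± 0.13, adjusted p = 0.0450), and Pcsk6, a convertase that cleaves the Nodal precursor, fell from 34.6 to 26.6 TPM (-0.37 ± 0.10, adjusted p = 0.0431).

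The calls of Dact2 and Pcsk6 were lost on leaving out any 1 of the 5 sets (adjusted p from 0.0735 to 0.251 for Dact2 and from 0.0664 to 0.260 for Pcsk6). After quantile normalization neither Dact2 (adjusted p = 0.0604) nor Pcsk6 (0.0823) passed, and Pcsk6 did not pass after median-of-ratios scaling (0.0766). Both calls were also lost on leaving out single libraries. For Pcsk6 these were library 2 of wild-type set 1 (adjusted p = 0.0559) and, among mutant libraries, library 2 of set 1 (0.103), library 2 of set 2 (0.0515) and library 1 of set 3 (0.0502). For Dact2 the adjusted p rose to between 0.0514 and 0.0853 without any of 8 libraries, namely both of wild-type set 1, library 1 of wild-type set 2, both of mutant set 1, library 1 of mutant set 2 and both of mutant set 3. Gdf3, a Nodal-like ligand, was at 40.0 and 32.9 TPM (-0.28 ± 0.14, adjusted p = 0.192), and the activin subunit Inhba and the antagonist Cer1 were at 0 in every library.

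**Figure D4:**
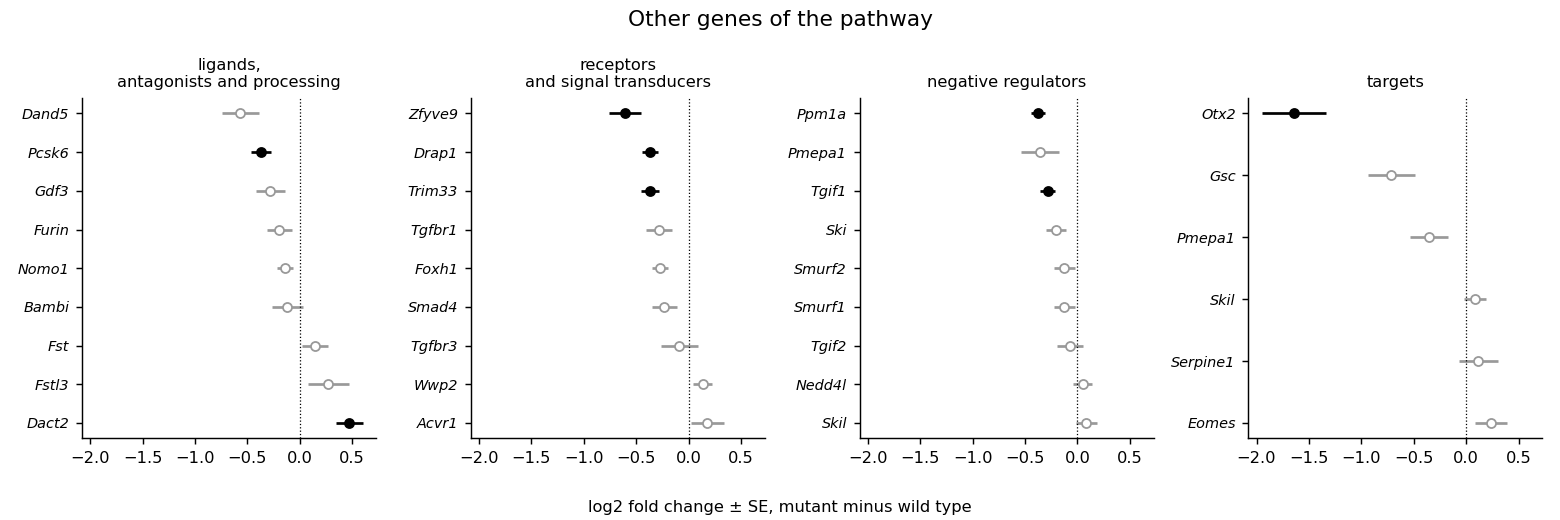
Log2 fold change ± SE of the other tested genes of the pathway (all but 1 of them), mutant minus wild type, in 4 groups by role. Filled black symbols passed an adjusted p of 0.05. Otx2 (-1.64) lies far to the left of the other genes shown, and Dact2 (0.47) is the filled symbol on the right.

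The tested genes around the Lefty genes on chromosome 1 went both ways, and the share that passed was near that of all tested genes. Of 13 tested genes within 500 kb of the span from Lefty2 to Lefty1, 2 passed and 11 did not, where 17.5% of all tested genes passed. Their median log2 fold change was 0.08, beside -0.04 over all tested genes. Ephx1, an epoxide hydrolase 37810 bp beyond Lefty1, rose. It was at 16.42, 17.71, 16.41 and 15.88 TPM in wild-type and between 32.51 and 36.25 TPM in mutant libraries (1.02 ± 0.08, adjusted p = 0.00267). Of the other near genes, Tmem63a (-0.37 ± 0.14, adjusted p = 0.114) and Sde2 (0.04 ± 0.09, adjusted p = 0.786) did not pass. Every mutant library of Tmem63a (at most 2.62 TPM) was nevertheless below every wild-type library (at least 2.65 TPM). The genotypes did not overlap for 4 of the 13 genes, beside 31.8% of all tested genes. The remaining neighbour that passed is not reported here. Without wild-type set 2 Ephx1 did not pass (adjusted p = 0.0527).

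**Figure D5:**
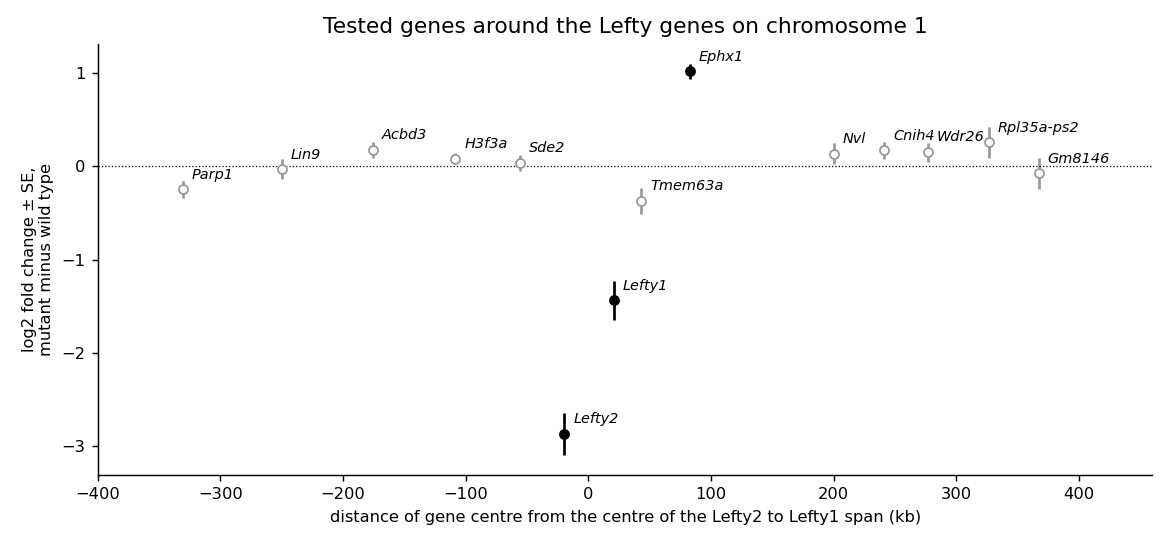
Log2 fold change ± SE, mutant minus wild type, of the Lefty genes and all but 1 of the 13 tested neighbours against the distance of each gene's centre from the centre of the span from Lefty2 to Lefty1 (kb); filled black symbols passed an adjusted p of 0.05. Lefty2 and Lefty1 lie below 0 at the centre and Ephx1 (1.02) above it.

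Over the 10 libraries, the transcripts whose log2(TPM + 1) was most like that of Lefty2 were Pdia4 (Pearson r = 0.995), Sgk1 (0.994) and Ly6a (0.992). Those most like Lefty1 were Snu13 (0.978), Rbis (0.977) and S1pr2 (0.976), and those most like Nodal were Hspbap1 (0.987), Tuba1b (0.982) and Pfn1 (0.982). Lefty2 and Lefty1 had r = 0.920 with each other, and Nodal had 0.878 with Lefty2 and 0.895 with Lefty1. These are descriptions over libraries that share sets and the difference between genotypes, so genes that differ by genotype tend to reach high values. Tuba1b has near-identical tubulin copies, so its level is uncertain.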

How the data were processed

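RNA-seq of 4 wild-type and 6 mutant libraries was read from a deposited table of TPM per gene and library. The submitters' processing notes name Trim Galore, STAR, RSEM and DESeq2 and the build mm10. Versions, options, strandedness and gene models are not given in the sources. RSEM divides reads shared by similar genes by estimation. All 10 columns matched sample titles, no pair of libraries was identical, and 55141 of 55401 identifiers matched GENCODE M21.

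The 12797 genes whose 10-library mean reached 1 TPM were tested. Values were log2(TPM + 1), averaged within each set. The 3 mutant set means were tested against the 2 wild-type set means in limma 3.58.1 (R 4.3.3; two-sided, eBayes with trend, residual df 3, prior df 4.01), with Benjamini-Hochberg adjustment. Differences between sets came from a fit of single libraries with 5 set levels. The scripts were tested on simulated data. Count models were not run, since TPM are not counts.

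Members, lists and tests were chosen with earlier results of these data known. Named genes were the members, Ankrd11, per pathway group up to 6 called genes by size of change, the 4 nearest neighbours of the Lefty genes and any called one, and the 3 most correlated genes each for Lefty1, Lefty2 and Nodal, with predicted genes passed over. Gsc, Eomes, Sox1, Foxh1, Smad4 and Gdf3, the pluripotency (Nanog among them) and trophoblast markers given singly, and the genes named as under 1 TPM, were added after their values were seen. A few items that these rules select are not reported here. Alternatives were another pseudocount (0.1), no filter or a mean of at least 5 TPM, other scalings, units of replication, blocks and variance moderation, and leaving out each set and library. Figures were drawn with matplotlib 3.10.9.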

Additional observations from a re-analysis of the deposited data

How the results depend on the processing

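Of 257 values of single members under the alternatives, 228 kept direction and side of the threshold, 20 lost the call, 8 gained it, and the direction of 1 turned: leaving out a set or library gave Acvr2b changes from -0.21 to 0.025, the latter without wild-type set 1. In place of 2242 genes, 809 were called with no filter (26268 genes tested), 5269 over 10 libraries with sets ignored, 3398 with the set as a random block, 4998 with the replicate number as a block and 571 with the set number as a block; leaving out a set or library gave from 42 (without wild-type set 2) to 2393. In place of 5 members, 1 (Lefty2) was called with no filter, 3 at a mean of at least 5 TPM (Lefty1, Smad3 and Acvr2a were then not tested), 8 with sets ignored, 7 with the replicate block and 2 with the set-number block (Lefty1 and Lefty2; adjusted p = 0.0628 for Smad3, 0.0977 for Acvr1b and 0.102 for Tdgf1), and from 0 (5 at an unadjusted p under 0.05) to 7 on leaving out a set or library. In place of 9 other pathway genes, 2 were called with no filter, 4 after quantile normalization, 6 after median-of-ratios scaling, 17 with sets ignored, 15 with the replicate block, 2 with the set-number block and 5 without a variance trend, and from 0 (8 unadjusted) to 9 on leaving out. In place of 2 neighbours of the Lefty genes, 5 were called with sets ignored and with the replicate block, and from 0 (2 unadjusted) to 3 on leaving out. Without a variance trend Tdgf1 did not pass (adjusted p = 0.0766). Causes were not tested. The main fit did not pair libraries or sets by number. Differences between replicates 1 and 2 correlated from -0.0761 to 0.116 between sets. Set deviations correlated at -0.164 (set 1) and -0.0904 (set 2) between genotypes. With 2 wild-type sets, both of these use the same wild-type values with opposite sign. They are thus not independent, and weak correlations do not settle whether the numbers pair the libraries. Depth is unknown, so counting error of low members (Lefty1, Smad3, Acvr2a) could not be given.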
